A study of Mus musculus with 6 samples.

Results

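Genes that build or mark mature neurons were followed in the injured mouse cortex, 10 in all: the neurofilament genes Nefl, Nefm, Nefh and Ina, the microtubule-associated protein genes Map2 and Mapt, the neuronal nuclear protein gene Rbfox3, the enzyme genes Eno2 and Uchl1, and the surface glycoprotein gene Thy1. They were chosen by name, and all 10 had a row among the 24421 gene symbols of the count table and passed the filter on low counts, which left 14852 genes to test. The tissue was cortex of C57BL/6 mice with a stroke made by MCAO, blockage of the middle cerebral artery. In 3 samples the mice had received NeuroD1, a transcription factor that drives cells towards a neuronal fate, and in 3 samples they had received green fluorescent protein (GFP), the control. All 6 samples therefore share the strain and the stroke, and uninjured cortex was not analysed here. The sources used here give neither the vector nor the promoter that drives it, and neither the time after stroke nor the age and sex of the mice. The series title names an intravenous gene therapy. The labels number the samples without saying that each came from its own animal, so p-values speak only of the spread among these samples, possibly a technical one.

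Neurofilaments are the intermediate filaments of neurons. The light chain Nefl, the medium chain Nefm, the heavy chain Nefh and alpha-internexin (Ina) assemble into one polymer that fills the axon and sets its calibre, and released neurofilament protein is a widely used fluid marker of axonal injury. Map2 and tau, the product of Mapt, bind microtubules, Map2 mainly in cell bodies and dendrites and tau mainly in axons. The antigen known as NeuN is the product of Rbfox3, a splicing regulator of mature neurons. Neuron-specific enolase (Eno2) is a glycolytic enzyme, and Uchl1 is a ubiquitin hydrolase that makes up a large share of neuronal soluble protein.

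Library totals ran from 10843273 to 13440244 counts with NeuroD1 and from 7753101 to 9698795 counts with GFP, so every NeuroD1 library was deeper. One count was worth 0.0744 to 0.0922 CPM, the count scaled to the total of its library, with NeuroD1 and 0.103 to 0.129 CPM with GFP. All other CPM values are also scaled by TMM (trimmed mean of M values), and the lowest count of any of the 10 genes in any library was 174. Neurod1 itself (chromosome 2) had 48.5, 14.6 and 38.4 CPM in NeuroD1 replicates 1, 2 and 3, against 6.48, 3.87 and 5.43 CPM in the GFP replicates, so the libraries followed their labels (6.39-fold, edgeR adjusted p = 0.136). GFP replicate 2 stood apart in the 45S ribosomal RNA precursor Rn45s, which took 7.25% of its counts, against 0.22% to 1.22% in the other 5 libraries. Neuronal markers were abundant everywhere: Snap25, a synaptic fusion protein gene, lay between 686 and 1658 CPM with NeuroD1 and between 895 and 1816 CPM with GFP.

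No difference between NeuroD1 and GFP cortex passed the test for any of the 10 genes, against the spread between samples. With an adjusted p under 0.05 as the threshold (Benjamini-Hochberg, all tested genes), edgeR's quasi-likelihood F-test called 0 of the 10, and their adjusted p ran from 0.23 for Mapt to 0.959 for Thy1. Over all 14852 genes the same test called 0 (0%), with a smallest adjusted p of 0.136, limma-voom also called 0, and DESeq2 called 1366, 8.91% of the 15332 genes it gave an adjusted p (5.04% higher and 3.87% lower). At an unadjusted p under 0.05 edgeR had 0 of the 10, where 24% of all tested genes passed. DESeq2 and limma-voom also called 0 of the 10 after adjustment, and each had Mapt alone at an unadjusted p under 0.05. Over all genes, 4114 of 19420 were under it in DESeq2 and 3529 of 14852 in limma-voom. The fitted level was higher with NeuroD1 for Nefl and Ina and lower for the other 8, and the median log2 fold change of the 10 was -0.09, beside 0.02 over all tested genes. Every 95% interval of the 10 included 0, and the intervals were wide, from 0.412-fold to 3.13-fold at their outermost ends. Differences inside these intervals were not detectable with 3 samples a group.

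**Figure D1:**
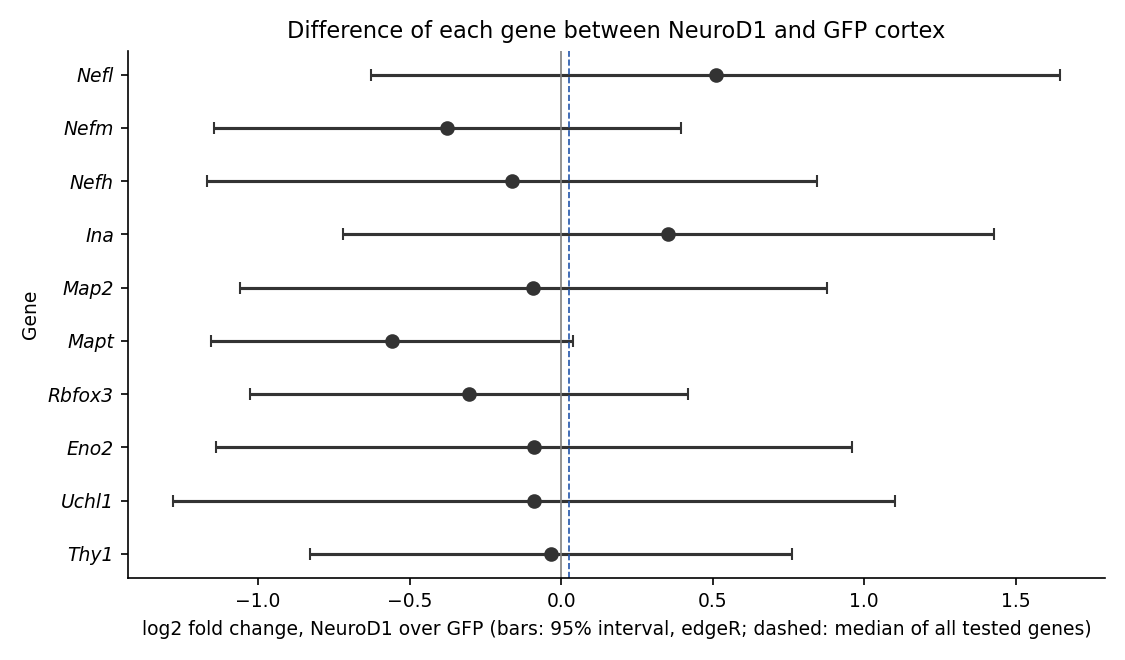
Difference of each of the 10 genes between NeuroD1 and GFP cortex, as log2 fold change (NeuroD1 over GFP) on the horizontal axis with its 95% interval from edgeR; the dashed line is the median of all tested genes, 0.02. All 10 intervals cross 0, and that of Mapt, at -0.56, reaches from -1.15 to 0.04.

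NeuroD1 belongs to the basic helix-loop-helix factors, which bind DNA at E-boxes, the letters CANNTG. The promoter windows of the members are printed for that reason where RefSeq (build GRCm38.p6) holds them, from 250 bases before to 50 bases after the gene start. Windows were found for 5 of the 10 genes, namely Ina, Rbfox3, Eno2, Map2 and Uchl1, and 3 held an E-box, which are shown 5′ to 3′ on the gene's strand with the E-box letters in capitals. They are chr19:47014431-47014730 (plus) for Ina, chr11:118760992-118761291 (minus) for Rbfox3 and chr6:124769624-124769923 (minus) for Eno2. The Rbfox3 window lies inside the gene's GENCODE span, at the start RefSeq gives.
Ina: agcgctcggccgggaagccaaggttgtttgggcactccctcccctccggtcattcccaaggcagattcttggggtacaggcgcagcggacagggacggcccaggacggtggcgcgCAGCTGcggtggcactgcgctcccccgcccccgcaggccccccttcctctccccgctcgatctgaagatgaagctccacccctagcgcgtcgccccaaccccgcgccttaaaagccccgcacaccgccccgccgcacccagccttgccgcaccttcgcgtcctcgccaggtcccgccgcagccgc
Rbfox3: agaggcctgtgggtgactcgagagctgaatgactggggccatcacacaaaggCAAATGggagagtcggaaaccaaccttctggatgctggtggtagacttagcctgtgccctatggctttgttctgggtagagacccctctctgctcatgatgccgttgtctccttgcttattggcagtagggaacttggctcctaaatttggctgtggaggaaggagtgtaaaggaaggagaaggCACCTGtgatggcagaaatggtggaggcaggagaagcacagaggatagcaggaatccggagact
Eno2: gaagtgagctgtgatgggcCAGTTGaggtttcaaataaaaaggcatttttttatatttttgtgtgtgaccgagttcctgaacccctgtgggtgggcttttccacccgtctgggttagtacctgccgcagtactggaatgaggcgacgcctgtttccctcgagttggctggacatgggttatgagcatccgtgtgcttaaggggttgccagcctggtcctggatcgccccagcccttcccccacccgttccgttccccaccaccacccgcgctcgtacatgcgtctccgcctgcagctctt
On either strand, CANNTG was found in 3 of the 5 windows (60%) and in 72.3% of all 32851 promoter windows of the same length. The form CAGATG, with its reverse complement CATCTG and itself a subset of CANNTG, was found in 0 of the 5 and in 17.2% of all windows. A match is a description of the letters and not a binding site, and none of these 3 genes was called.

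The light chain gene Nefl (chr14:68083863-68089095, plus strand, GRCm38) had 189, 64.0 and 141 CPM in NeuroD1 replicates 1, 2 and 3, against 156, 47.0 and 73.9 CPM in the GFP replicates. The groups overlapped, with the highest value in NeuroD1 replicate 1 and the lowest in GFP replicate 2. The log2 fold change was 0.51 (SE 0.50, edgeR adjusted p = 0.534), or 1.42-fold with a 95% interval of 0.647-fold to 3.13-fold. Alpha-internexin, Ina (chr19:47014698-47025327, plus strand), which joins the filament triplet in central neurons, went with Nefl from library to library. It had 81.7, 29.3 and 63.0 CPM in the NeuroD1 replicates, against 73.8, 23.2 and 39.0 CPM in the GFP replicates, and its log2 fold change was 0.35 (SE 0.47, adjusted p = 0.657).

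The medium chain gene Nefm (chr14:68082590-68124846, minus strand) had 83.8, 40.5 and 80.2 CPM in NeuroD1 replicates 1, 2 and 3, against 111, 58.2 and 96.4 CPM in the GFP replicates. The highest values were in GFP replicates 1 and 3, but the groups overlapped, and the log2 fold change was -0.38 (SE 0.34, adjusted p = 0.497). The heavy chain gene Nefh (chr11:4938754-4948064, minus strand), whose long phosphorylated tail spaces neighbouring filaments, was the least abundant of the 4. It had 37.2, 17.9 and 47.8 CPM in the NeuroD1 replicates, against 62.3, 25.5 and 27.2 CPM in the GFP replicates (log2 fold change -0.16, SE 0.44, adjusted p = 0.839).

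**Figure D2:**
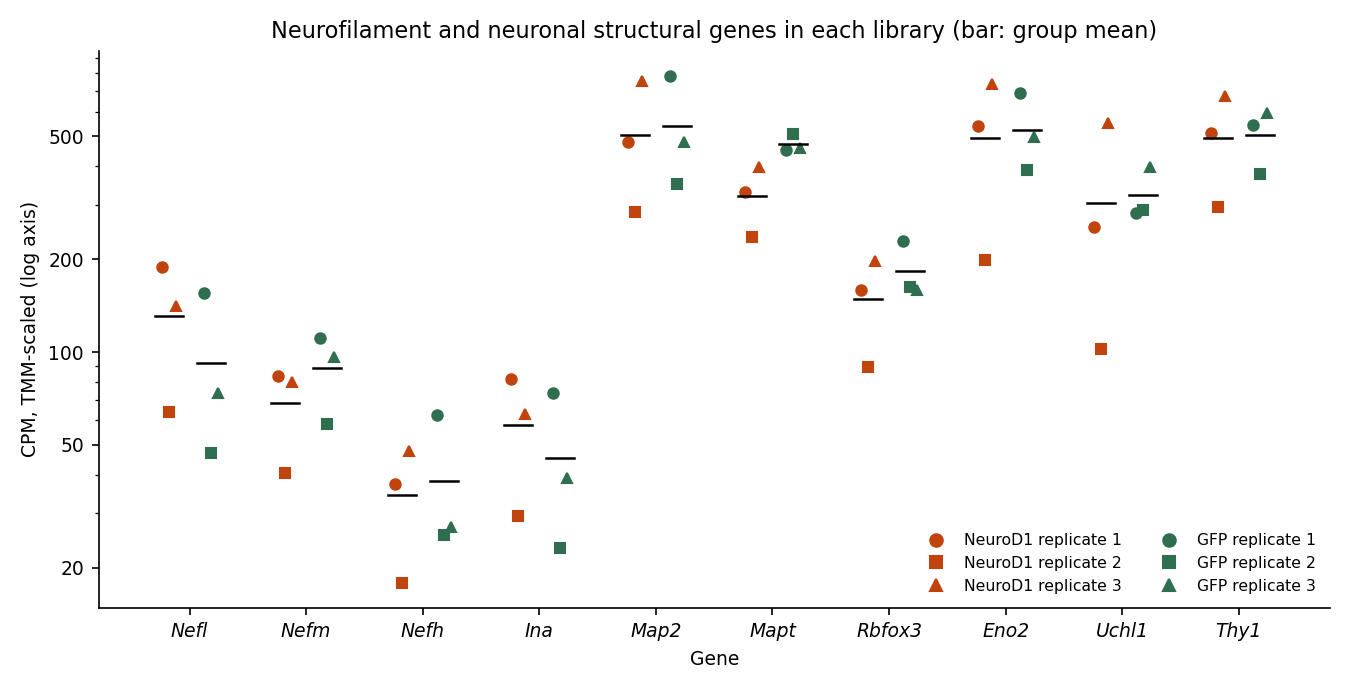
Level of each of the 10 genes in each library, in CPM after TMM scaling on a log axis; points are libraries, bars are group means, and shapes mark the replicate number. The groups overlap for 9 of the 10 genes, while the 3 NeuroD1 libraries lie below the 3 GFP libraries for Mapt.

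Within a library, however, Nefl stood higher relative to each of the other 3 filament genes with NeuroD1 than with GFP. A ratio of 2 genes in the same library does not depend on library scaling. It is free of the total amount of neuronal RNA only if both genes come from neurons alone, in the same mix. That was not tested. For each CPM of Nefl there were 0.443, 0.634 and 0.57 CPM of Nefm in NeuroD1 replicates 1, 2 and 3, against 0.711, 1.24 and 1.3 in the GFP replicates. Nefm was thus below Nefl in all 3 NeuroD1 libraries and above it in GFP replicates 2 and 3. The mean ratio was 0.549 ± 0.0971 with NeuroD1 and 1.08 ± 0.325 with GFP (SD, n = 3 each), a log2 difference of -0.95. For Nefh the ratio to Nefl was 0.197, 0.28 and 0.339 in the NeuroD1 replicates, against 0.4, 0.543 and 0.368 in the GFP replicates, a log2 difference of -0.70. For Ina it was 0.432, 0.458 and 0.448 with NeuroD1, against 0.474, 0.494 and 0.528 with GFP. That difference was small, -0.16 on the log2 scale, as was the spread, and the mean ratio was 0.446 ± 0.0133 with NeuroD1 and 0.499 ± 0.0271 with GFP.

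The groups did not overlap in any of these 3 ratios. Each had a two-sided exact permutation p of 0.1, the smallest that 3 against 3 samples can give, and 0.133 after adjustment over the 4 ratios tested, so none passed the threshold and none could have. The 3 ratios share Nefl and are not separate observations. Over all other tested genes, the ratio to Nefl was lower without overlap in the NeuroD1 libraries for 4.53% and higher without overlap for 1.15%, 5.68% in all. Summed over the 4 filament genes, the level relative to the other 6 genes was 0.172, 0.126 and 0.1 with NeuroD1, against 0.135, 0.0742 and 0.0913 with GFP, and the groups overlapped (exact permutation p = 0.3). The ratio of Nefm to Ina, looked at after its values were seen, ran from 1.03 to 1.38 with NeuroD1 and from 1.5 to 2.51 with GFP. No share over all genes was taken for ratios to Ina. Because Ina went with Nefl, the ratio of Nefm to Ina is not separate from that of Nefm to Nefl. The remaining pairs overlapped between the groups. Nefm to Nefh ran from 1.679 to 2.265 with NeuroD1 and from 1.777 to 3.548 with GFP. Nefh to Ina ran from 0.455 to 0.758 with NeuroD1 and from 0.696 to 1.098 with GFP.

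A limit on the ratio of Nefm to Nefl is that these neighbouring genes lie on opposite strands and overlap. In GENCODE M21, 1108 bases of Nefl exon, 32.8% of its exon length, are also exon of a long Nefm transcript. Neither the strand setting of the counting nor whether that transcript was in the gene file is given, so reads from that stretch may not have been told apart, and it enters the Nefl count in all 3 ratios. A similar overlap with Nt5c2 covers 14.1% of the exon length of Ina.

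**Figure D3:**
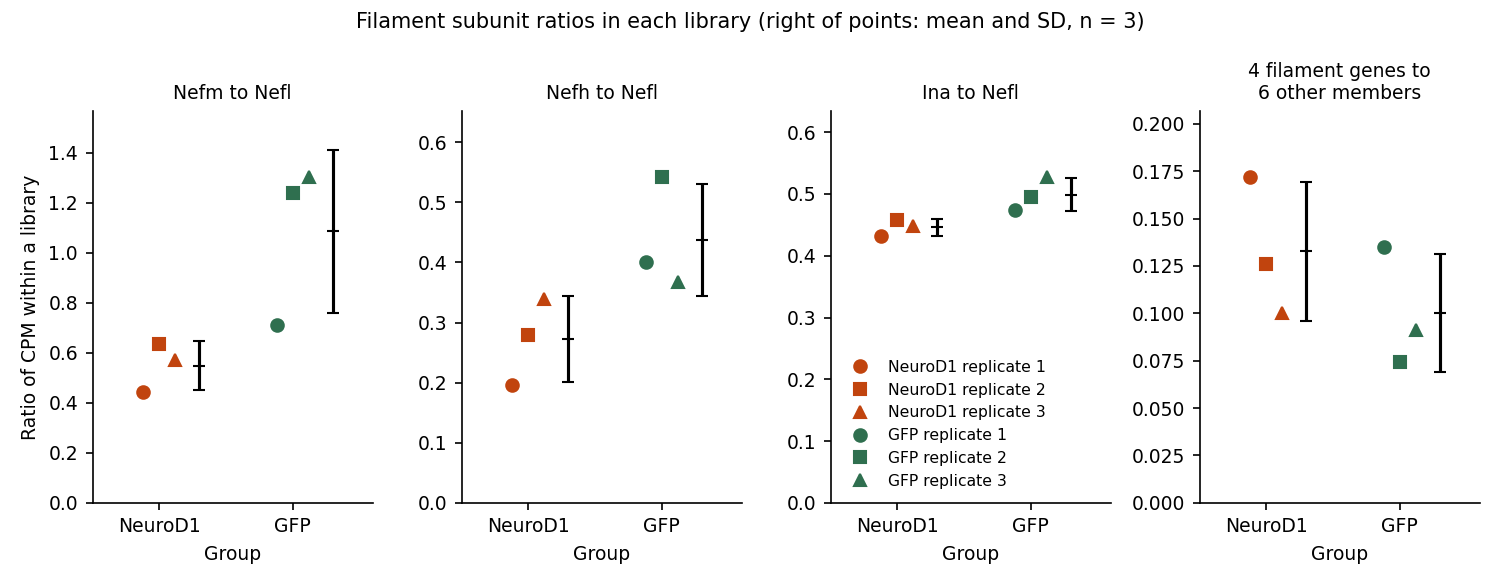
Ratio of CPM within each library for Nefm, Nefh and Ina to Nefl and for the 4 filament genes to the other 6 genes, NeuroD1 on the left and GFP on the right of each panel, with the mean and SD beside the points. The 3 NeuroD1 points lie below the 3 GFP points in the first 3 panels, between 0.432 and 0.458 against 0.474 to 0.528 for Ina, and the groups overlap in the last.

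Of the microtubule-associated proteins, Mapt was the member with the smallest p, and the 3 NeuroD1 libraries lay below all 3 GFP libraries. Mapt (chr11:104231390-104332090, plus strand) had 331, 235 and 397 CPM in NeuroD1 replicates 1, 2 and 3, against 451, 508 and 458 CPM in the GFP replicates. The means were 321 ± 81.0 CPM with NeuroD1 and 472 ± 30.8 CPM with GFP (SD, n = 3 each), 1.47-fold lower with NeuroD1 (log2 fold change -0.56, SE 0.26, edgeR adjusted p = 0.23, unadjusted p = 0.0629). It was the only one of the 10 genes whose groups did not overlap, 10%, where 29.6% of all tested genes did not overlap, 14.2% with NeuroD1 higher and 15.3% with NeuroD1 lower. The result therefore does not set Mapt or the 10 genes apart from other genes.

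Oligodendrocytes also make tau, and the sum of their markers was lower in the same libraries. The summed level of 10 oligodendrocyte markers was 7391, 8846 and 9868 CPM in the NeuroD1 replicates, against 11348, 21540 and 12662 CPM in the GFP replicates. All 10 were detected, edgeR called 0 after adjustment, 5 were lower at an unadjusted p under 0.05, where 11.5% of all tested genes were, and DESeq2 called 3 lower, where it called 3.87% of all genes lower. GFP replicate 2 was the highest library in both Mapt and the oligodendrocyte sum. The part of these cells in the Mapt result was not tested.

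The dendritic gene Map2 (chr1:66175273-66442583, plus strand) did not follow Mapt. It had 478, 283 and 754 CPM in NeuroD1 replicates 1, 2 and 3, against 784, 350.0 and 481 CPM in the GFP replicates. The levels spread 2.66-fold between NeuroD1 replicates 3 and 2, and the log2 fold change was -0.09 (SE 0.42, adjusted p = 0.909).

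Rbfox3, the NeuN gene (chr11:118489762-118911597, minus strand), had 159, 89.6 and 197 CPM in NeuroD1 replicates 1, 2 and 3, against 229, 162 and 158 CPM in the GFP replicates. NeuroD1 replicate 2 was lowest and the groups overlapped, and the log2 fold change was -0.30 (SE 0.32, adjusted p = 0.562). In bulk tissue, fewer neurons and less of a transcript per neuron cannot be told apart.

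Eno2 (chr6:124760053-124769673, minus strand) had 542, 199 and 739.8 CPM in NeuroD1 replicates 1, 2 and 3, against 689, 388 and 498.5 CPM in the GFP replicates (log2 fold change -0.09, SE 0.46, adjusted p = 0.918). Uchl1 (chr5:66676091-66687234, plus strand) was the most variable of the 10 genes with NeuroD1. It had 255, 102 and 553 CPM in the NeuroD1 replicates, against 283, 288 and 397 CPM in the GFP replicates, a coefficient of variation of 75.6% with NeuroD1 and 20% with GFP. NeuroD1 replicate 3 held both the highest Eno2 and the highest Uchl1 of all libraries, and NeuroD1 replicate 2 the lowest of both. The log2 fold change of Uchl1 was -0.09 (SE 0.52, adjusted p = 0.929). An antisense gene, Uchl1os, shares 244 bases of exon with Uchl1, 20.7% of its exon length, and without a known strand setting their reads may not have been told apart.

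Thy1 (chr9:44043384-44048579, plus strand) is a surface glycoprotein of projection neurons that in mice also marks T cells. It had 513, 294 and 676 CPM in NeuroD1 replicates 1, 2 and 3, against 543.5, 379 and 595 CPM in the GFP replicates, and its log2 fold change of -0.03 (SE 0.35, adjusted p = 0.959) was the smallest of the 10. The summed level of 7 T cell markers was 34.6 to 41.6 CPM with NeuroD1 and 7.4 to 20.2 CPM with GFP. Their part in the Thy1 level was not tested.

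The 10 genes largely varied together from library to library, with Mapt in GFP replicate 2 as the clearest exception. NeuroD1 replicate 2 was the lowest of its group for all 10 and the lowest of all 6 libraries for 8 of them, the exceptions being Nefl and Ina, which were lowest in GFP replicate 2. NeuroD1 replicate 3 was the highest of its group for 7 of the 10, and GFP replicate 1 for 7 of the 10. Their summed level was 2670, 1355 and 3648 CPM in NeuroD1 replicates 1, 2 and 3, against 3382, 2228 and 2825 CPM in the GFP replicates. Coefficients of variation within a group ran from 25.3% for Mapt to 75.6% for Uchl1 with NeuroD1, and from 6.52% for Mapt to 61.4% for Nefl with GFP. Without NeuroD1 replicate 2 the median log2 fold change of the 10 was 0.22, and without NeuroD1 replicate 3 it was -0.50, so the sign of the median rests on single libraries.

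The library with the lowest sum of neuronal genes also held the highest sum of microglia and macrophage markers and the highest sum of fibroblast markers. The summed level of 10 microglia and macrophage markers was 8358, 12354 and 4981 CPM in NeuroD1 replicates 1, 2 and 3, against 3270, 4636 and 4176 CPM in the GFP replicates. That of 8 fibroblast markers was 3521, 6075 and 1647 CPM with NeuroD1, against 920.0, 888 and 1791 CPM with GFP. In both sums NeuroD1 replicate 2 was the highest library, and NeuroD1 replicate 3, where the neuronal genes were high, was the lowest of its group. Lyz2 alone had 7588 CPM in NeuroD1 replicate 2. In the microglia and macrophage list Aif1, Csf1r, P2ry12 and Tmem119 were highest in other libraries, as was Col6a1 in the fibroblast list. The part of these cells in the levels of the 10 genes was not tested.

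**Figure D4:**
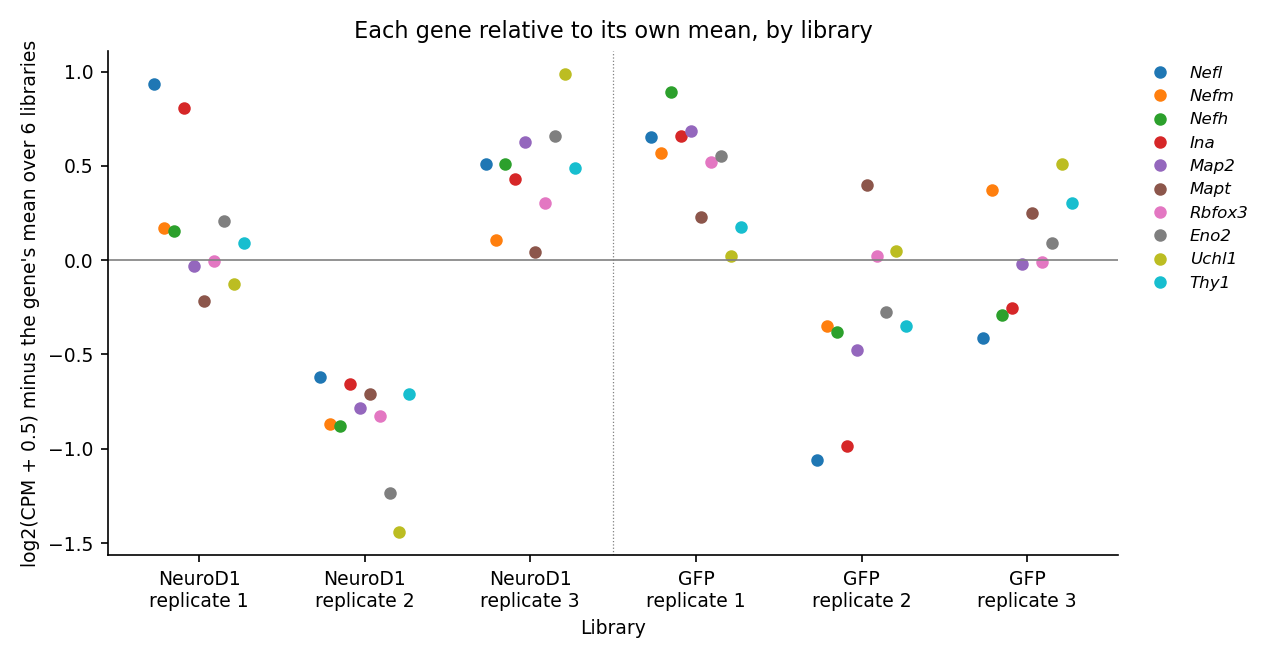
Each of the 10 genes in each library, as log2(CPM + 0.5) minus the mean of that gene over the 6 libraries; colours mark genes. All 10 points of NeuroD1 replicate 2 lie below 0, while in GFP replicate 2 Mapt lies above 0 and Nefl and Ina lie lowest.

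The 5 genes most like the 10 in their pattern over the 6 libraries, among 10957 other genes with a mean of at least 10 CPM, were Fam155a, Pfn2, Isca1, Nicn1 and Snap25. Their Pearson correlation with the mean pattern of the 10 lay between 0.991 and 0.996, given as a description over 6 libraries that share depth scaling and tissue content. Their log2 fold changes lay between -0.08 and -0.02, and their groups overlapped.

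Measured against other neuronal genes instead of the library total, the groups overlapped for all 10 genes. The summed level of 24 other neuronal genes, among them synaptic, RNA-binding and transmitter genes, was 13547, 6596 and 17557 CPM in NeuroD1 replicates 1, 2 and 3, against 16716, 10195 and 12944 CPM in the GFP replicates. Relative to that sum, Nefh was 0.275%, 0.271% and 0.272% with NeuroD1, nearly the same in all 3, against 0.373%, 0.25% and 0.21% with GFP. Nefl was 1.4%, 0.97% and 0.802% with NeuroD1, against 0.931%, 0.461% and 0.571% with GFP, and overlapped. Mapt was 2.44%, 3.57% and 2.26% with NeuroD1, against 2.7%, 4.98% and 3.54% with GFP, and overlapped as well, as did the other 7. Of all other tested genes, 10.3% did not overlap on this scale, 7.01% with NeuroD1 higher and 3.24% with NeuroD1 lower.

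Compared per kilobase of exon, the scale on which levels of different genes can be set side by side, Thy1 and Uchl1 were the highest of the 10 and Nefh the lowest. Thy1 had 263 ± 102.0 CPM per kilobase (RPKM) with NeuroD1 and 269 ± 60.3 RPKM with GFP (SD, n = 3 each), and Uchl1 258 ± 195 RPKM with NeuroD1 and 274 ± 54.9 RPKM with GFP. The difference between these neighbours in the order was smaller than their spread. Eno2 followed with 177 ± 98.0 RPKM with NeuroD1 and 188 ± 54.4 RPKM with GFP, then Mapt, Map2 and Rbfox3, with group means between 30.2 and 74.0 RPKM. By the mean over all 6 libraries the filament genes came last, in the order Nefl, Ina, Nefm and Nefh, but with NeuroD1 alone Nefl, at 38.9 RPKM, was above Rbfox3, at 30.2 RPKM. Nefl had 38.9 ± 18.7 RPKM with NeuroD1 and 27.3 ± 16.7 RPKM with GFP, and Nefh had 8.58 ± 3.79 RPKM with NeuroD1 and 9.59 ± 5.2 RPKM with GFP. Exon lengths came from GENCODE M21, not from the gene file the counts were made with, so the order between close genes is approximate.

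Genes that work with neurofilaments and microtubules showed the same absence of calls. In the lists of microtubule, initial segment, transport, kinase and turnover genes edgeR called 0 members after adjustment over all genes. DESeq2 called only Cast, as higher, where it called 5.04% of all genes higher and 3.87% lower. Of 20 tubulin and microtubule-binding genes, 1 was higher and 1 lower at an unadjusted p under 0.05, beside 12.5% higher and 11.5% lower among all tested genes, and the list median was -0.03. The tubulin gene Tubb2a averaged 187 ± 77.8 CPM with NeuroD1 and 96.4 ± 21.3 CPM with GFP (SD, n = 3 each; adjusted p = 0.167), and Stmn1, a tubulin-sequestering protein gene, 347 ± 83.1 CPM with NeuroD1 and 536 ± 20.1 CPM with GFP (adjusted p = 0.188). Mapre2, which binds growing microtubule ends, averaged 238 ± 10.2 CPM with NeuroD1 and 169 ± 38.0 CPM with GFP (adjusted p = 0.229).

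At an unadjusted p under 0.05, 12.5% of all tested genes were higher and 11.5% lower. Among 14 genes of the axon initial segment and the spectrin skeleton, 0 were higher and 1 lower (median -0.13). That gene was Sptbn4, the spectrin that anchors channels at the initial segment, at 95.5, 67.4 and 157 CPM in the NeuroD1 replicates, against 196, 194 and 228 CPM in the GFP replicates (adjusted p = 0.147). Trim46, which bundles microtubules at the same site, averaged 38.7 ± 16.2 CPM with NeuroD1 and 59.3 ± 2.96 CPM with GFP (adjusted p = 0.234), and the potassium channel gene Kcnq3 17.1 ± 14.6 CPM with NeuroD1 and 6.51 ± 3.55 CPM with GFP (adjusted p = 0.232). Of 14 axonal transport genes, 0 were at an unadjusted p under 0.05 (median -0.05). The kinesin light chain gene Klc2, the dynein heavy chain gene Dync1h1 and the kinesin Kif5a, which carries neurofilaments, had the smallest p, with log2 fold changes of -0.51, 0.36 and -0.82 (adjusted p = 0.246, 0.357 and 0.395).

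The kinases and phosphatases that act on neurofilaments and tau went both ways, 1 of 16 higher and 1 lower at an unadjusted p under 0.05 (median 0.11). Of all tested genes, 12.5% were higher and 11.5% lower. Gsk3b, a tau kinase gene, averaged 171 ± 23.5 CPM with NeuroD1 and 108 ± 33.9 CPM with GFP (adjusted p = 0.184). Cdk5, the catalytic subunit of a kinase of tau and of neurofilament tails, averaged 68.8 ± 14.8 CPM with NeuroD1 and 100.3 ± 11.3 CPM with GFP (adjusted p = 0.188).

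Of 12 genes of filament turnover and axon degeneration, 3 were higher and 0 lower at an unadjusted p under 0.05 (median 0.25). The shares over all tested genes were 12.5% higher and 11.5% lower. Cast, which encodes calpastatin, the inhibitor of the calpain proteases that cut neurofilaments, had 46.2, 71.1 and 31.9 CPM in the NeuroD1 replicates, against 26.8, 19.2 and 18.5 CPM in the GFP replicates (log2 fold change 1.21, SE 0.32, edgeR adjusted p = 0.137). For Cast the NeuroD1 libraries lay above all GFP libraries, as they did for 14.2% of all tested genes. Other cell types express Cast as well, and NeuroD1 replicate 2, highest in the macrophage and fibroblast sums, was highest in Cast too. The part of those cells was not tested.

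**Figure D5:**
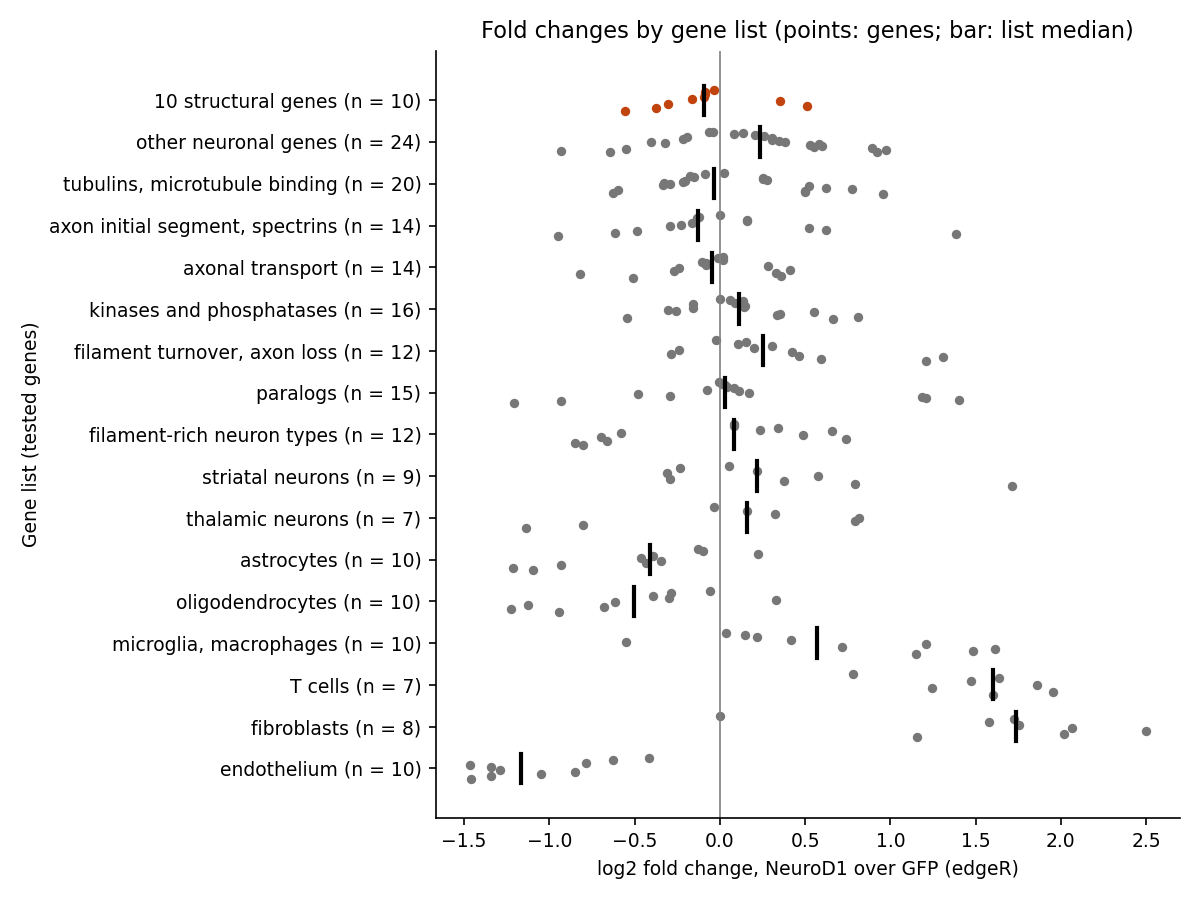
Log2 fold change (NeuroD1 over GFP, edgeR) of every tested gene in each list, with the list median as a bar; the 10 structural genes are in the top row. Their median of -0.09 lies near 0, as do those of the tubulin, spectrin and transport lists, while the lists of T cells (1.6), fibroblasts (1.74) and endothelium (-1.17) lie apart.

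Relatives of the 10 genes included the intermediate filament genes of other cells and the other enolases. In this list of 15 genes 1 was higher and 2 lower at an unadjusted p under 0.05 (median 0.03). After adjustment edgeR called 0, while DESeq2 called Gfap lower, as it did 3.87% of all genes. At that unadjusted p, 12.5% of all tested genes were higher and 11.5% lower. Gfap, the intermediate filament of astrocytes, had 3157, 1814 and 3709 CPM in NeuroD1 replicates 1, 2 and 3, against 5669, 6231 and 4660 CPM in the GFP replicates (log2 fold change -0.93, SE 0.39, edgeR adjusted p = 0.193). Its groups did not overlap, with NeuroD1 lower, as in 15.3% of all tested genes. The muscle enolase gene Eno3 averaged 8.99 ± 4.1 CPM with NeuroD1 and 20.8 ± 10.3 CPM with GFP (adjusted p = 0.184), and the ubiquitous enolase gene Eno1 43.9 ± 25.2 CPM with NeuroD1 and 16.5 ± 13.2 CPM with GFP (adjusted p = 0.197). The Eno1 value is uncertain because Eno1b is nearly identical in sequence and reads could be shared between them.

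Neurofilament levels differ between neuron classes, so genes of filament-rich cells, layer 5 projection neurons and fast-spiking interneurons, were set beside them. Of these 12 genes 7 were fitted higher and 5 lower, 0 were higher and 3 lower at an unadjusted p under 0.05 (median 0.08), and 0 were called by edgeR or DESeq2. At that unadjusted p, the shares over all tested genes were 12.5% higher and 11.5% lower, and DESeq2 called 8.91% of all genes. Among the genes with the smallest p, all on the lower side, Fezf2, which specifies layer 5 projection neurons, averaged 13.2 ± 5.43 CPM with NeuroD1 and 23.8 ± 1.43 CPM with GFP (adjusted p = 0.177), and Pvalb, the parvalbumin gene of fast-spiking interneurons, 29 ± 10.1 CPM with NeuroD1 and 45.9 ± 8.47 CPM with GFP (adjusted p = 0.196). Nefh, which is abundant in the same cells, had a log2 fold change of -0.16, with a 95% interval of -1.17 to 0.84. That interval holds the values of Fezf2 (-0.85) and Pvalb (-0.66), which were named for their small p. The comparison therefore does not set Nefh apart from them.

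Among the 24 other neuronal genes, 1 was higher and 2 lower at an unadjusted p under 0.05 (median 0.23), with 0 called by edgeR or DESeq2. Over all tested genes, 12.5% were higher and 11.5% lower at that unadjusted p, and DESeq2 called 8.91% of all genes. Gad2, an enzyme of GABA synthesis, averaged 84.0 ± 30.0 CPM with NeuroD1 and 44.2 ± 16.7 CPM with GFP (adjusted p = 0.177). The RNA-binding protein gene Elavl3 and the postsynaptic gene Nrgn went the other way. They were the only 2 of the 24 without overlap between the groups, where 15.3% of all tested genes were lower with NeuroD1 without overlap. Elavl3 had 190, 177 and 282 CPM in the NeuroD1 replicates, against 303, 356 and 355 CPM in the GFP replicates (adjusted p = 0.181). Nrgn had 853, 675 and 1599 CPM with NeuroD1, against 1927, 2010 and 2040 CPM with GFP (adjusted p = 0.184).

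Tissue from neighbouring regions would carry its own neurons, and the sums of striatal and of thalamic markers overlapped between the groups. The summed level of 9 striatal genes was 130 to 368 CPM with NeuroD1 and 168 to 233 CPM with GFP, and that of 7 thalamic genes 186 to 339 CPM with NeuroD1 and 202 to 222 CPM with GFP. The 339 CPM belonged to NeuroD1 replicate 2, where Prkcd (133 CPM) and Zic1 (115 CPM) made up most of the sum. How much thalamic tissue the samples held was not tested. In the striatal list Penk, at 17.6, 30.9 and 151 CPM in the NeuroD1 replicates, against 14.8, 18.4 and 27.4 CPM in the GFP replicates, had the smallest p (adjusted p = 0.196), followed by Drd2 and Pde10a. NeuroD1 replicate 3, the library highest in Uchl1 and Eno2, was also highest in Penk. In the thalamic list the smallest p was that of Lef1 (9.82 ± 2.91 CPM with NeuroD1 and 21.6 ± 3.07 CPM with GFP, edgeR adjusted p = 0.136), followed by Ramp3 and Zic1. Endothelium also expresses Lef1, and DESeq2 called it lower, as it did 3.87% of all genes. Of the 7 thalamic genes 4 were fitted higher, Zic1 among them, and 3 lower, Lef1 and Ramp3 among them (median log2 fold change 0.16).

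Of the other cell types, 10 astrocyte markers summed to 5679 to 10351 CPM with NeuroD1 and 9601 to 15829 CPM with GFP, with S100b at the smallest p (log2 fold change -1.10, edgeR adjusted p = 0.136). The 10 endothelial markers summed to 330.0 to 614 CPM with NeuroD1 and 741 to 1126 CPM with GFP, led by Tek (log2 fold change -1.46, adjusted p = 0.136). In the oligodendrocyte, microglia and macrophage, T cell and fibroblast lists the smallest p belonged to Opalin, Ptprc, Cd5 and Pdgfra, at 0.52-fold, 2.22-fold, 3.03-fold and 2.23-fold. DESeq2 called 3 of the astrocyte, 3 of the oligodendrocyte and 7 of the endothelial markers lower with NeuroD1, and 3 of the microglia and macrophage, 3 of the T cell and 7 of the fibroblast markers higher, beside 3.87% lower and 5.04% higher among all genes. The edgeR test called 0 genes in any of these lists.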

How the data were processed

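Bulk RNA sequencing covered 6 cortex samples, 3 with NeuroD1 and 3 with GFP. The authors deposited raw counts for each gene symbol, from featureCounts with an mm10 gene annotation, per the file headers. The submitters' processing notes list HISAT2 2.0.1, DESeq2 1.16.1 and GRCm38. Strand setting, annotation release and multi-mapping are not given. Columns were matched to samples by the description in the labels.

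Counts were filtered with filterByExpr (minimum count 10, minimum total 15), scaled by TMM and tested with edgeR 4.0.16 (quasi-likelihood F-test, R 4.3.3), with treatment as the only term, and adjusted over all 14852 genes. Standard errors came from the F statistic. Ratios within a library used a two-sided exact permutation test. DESeq2 1.42.0 and limma-voom (limma 3.58.1), other scalings and filters, a replicate block and leaving out each library were alternatives. RPKM was CPM per kilobase of GENCODE M21 exon. Replicates were not duplicates: between libraries of a group, chi-square averaged 33.8 to 126 over genes, where sampling noise gives about 1.

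The 10 genes and the gene lists were chosen with earlier results of these data known. Named were the 10 genes, the 3 genes with the smallest p in each neuronal list, the gene with the smallest p in each list of another cell type, Neurod1 and the 5 genes most like the 10 in pattern. Genes named beyond these were chosen after their values were seen. Some genes that this rule names are not reported here.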

Additional observations from a re-analysis of the deposited data

How the results depend on the processing

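The count of 0 of the 10 genes called held under all alternatives run: the other tools (DESeq2, limma-voom), other scalings (upper quartile, size factors), other filters (none, stricter), a replicate block, an adjusted p threshold of 0.1, a table without Rn45s (added after the data were seen) and each library left out. The 80 log2 fold changes of the 10 genes under the alternatives that keep all libraries had the sign of the reported value in all 80, with a smallest adjusted p of 0.108 (Nefl with the replicate block). Leaving out 1 library turned the sign for 5 genes, none of them called: the log2 fold change ran from -0.47 to 0.36 for Nefh, from -0.49 to 0.27 for Map2, from -0.50 to 0.29 for Eno2, from -0.85 to 0.33 for Uchl1 and from -0.32 to 0.24 for Thy1. The median of the 10 ran from -0.50 to 0.22. Mapt stayed between -0.73 and -0.37 and Nefl between 0.15 and 1.10. The log2 difference of the ratio to Nefl stayed below 0 without any 1 library, from -1.23 to -0.79 for Nefm, -0.88 to -0.48 for Nefh and -0.20 to -0.12 for Ina, and that of the 4 filament genes to the other 6 from 0.21 to 0.65. Over all genes, DESeq2 called 1366, limma-voom 0, and edgeR 0 to 1 with a library left out, the 1 being Neurod1 without NeuroD1 replicate 2. Whether replicate numbers pair the samples was not settled. The correlations of same-numbered deviations were 0.565, 0.386 and 0.033, against -0.493 to 0.137 for libraries with different numbers. Of the 6 libraries, 4 correlated best with their own number. With the replicate block edgeR called 0 of the 10. Nefl and Nefm came to an unadjusted p under 0.05, as did 5016 of all 14852 tested genes. The fit with the block called 479 of all genes, among them 3 in the related lists (Eno1, Eno3 and Ms4a7), where the reported fit called 0. The cause was not tested. Pairing same-numbered samples leaves the log2 differences of the ratios (-0.95, -0.70 and -0.16) as they are by construction, and its exact sign-flip p of 0.25 is the smallest 3 pairs can give, so it says nothing of stability. The lowest count of any of the 10 genes was 174.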
